A study of Sorghum bicolor with 12 samples.

Results

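The transcripts examined were those of 4 sorghum loci with roles in the turnover of abscisic acid (ABA) and in the cleavage of carotenoids. They were chosen by locus name, as every transcript of Sobic.002G037400 and Sobic.001G155300, which the study annotates as NINE-CIS-EPOXYCAROTENOID DIOXYGENASE (NCED) genes, of Sobic.004G268700, annotated as an ABA 8'-hydroxylase, and of Sobic.006G170300, annotated as CAROTENOID CLEAVAGE DIOXYGENASE7 (CCD7). The rule gave 4 transcripts, 1 per locus, of 47205 transcripts at 34211 loci, and all 4 were among the 26320 transcripts that entered the tests because 1 or more internodes averaged 1 RPKM or above. Sobic.002G037400.1 did so through Int2, Int3 and Int4 and was below 1 RPKM in Int1. The study named these loci among genes it had found differentially expressed in the same 12 libraries, so their direction of change is not independent evidence here.

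The libraries came from stems of the photoperiod-sensitive bioenergy sorghum inbred R.07020, kept vegetative in long days in a growth chamber and harvested 60 days after planting. Int1 was the youngest visible internode beneath the shoot apex, Int2 and Int3 the next ones down, and Int4 the oldest, which had stopped elongating. Each internode was represented by 3 libraries of polyadenylated RNA from whole internodes of 3 plants, and no group was treated or carried a mutation. The study describes the successive internodes as excised from 3 plants, so libraries of different internodes can share a plant. Tests below that treat the libraries as independent can therefore overstate the replication. Expression is given as RPKM, a density of mapped reads that is scaled to the length of the transcript and to the size of the library, so that levels can be compared between loci. Library depth was estimated from the most frequent ratio of low RPKM values between a library and Int1 replicate 1. The estimates were from 0.835 to 1.055 times the depth of Int1 replicate 1. Only a limited range of ratios was searched, so a large difference in depth could not have been found. Because whole internodes were sampled, a change in the number of cells that express a gene cannot be told apart from a change in the RNA of each cell.

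ABA is made from carotenoids. NCED enzymes cleave epoxycarotenoids in the plastid to xanthoxin, the first committed and usually rate-limiting step, and cytosolic enzymes convert xanthoxin to ABA. ABA 8'-hydroxylases, cytochrome P450 enzymes of the CYP707A family, begin the main route of ABA inactivation, towards phaseic acid, so that the hormone level depends on both activities. CCD7 acts on another branch of the same precursor pool: it cleaves a carotenoid in the synthesis of strigolactones, hormones known for restraining shoot branching. ABA is best known for its part in drought responses and seed dormancy and is generally an inhibitor of stem elongation.

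CCD7 was the only one of the 4 loci for which the study designed a primer pair for quantitative PCR. The sequences of the pair are shown because they mark the transcript that was chosen for measurement by another method. That PCR used RNA from the tissues that were sequenced, and the study reported highly similar patterns by both methods for the genes it measured. Both primers were 20 bases long, with a GC content of 50.0% for the forward and 55.0% for the reverse primer, and none of the bases is in capitals because no part was singled out.
CCD7 forward primer: acgcagattcttgccgtact
CCD7 reverse primer: tagccgtcatcctcgctact

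Expression of all 4 loci was higher in Int4 than in Int1, in every Int4 library compared with every Int1 library. How many of all transcripts tested separated in the same way was not counted, so the separation is not shown to be particular to these loci. The mean RPKM in Int4 was 53.5 times that in Int1 for Sobic.002G037400, 7.18 times for Sobic.001G155300, 6.72 times for the ABA 8'-hydroxylase and 5.02 times for CCD7. The libraries of Int1 and Int2 overlapped for 3 of the 4 loci, and Sobic.002G037400 was the locus whose Int2 libraries were all above its Int1 libraries.

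**Figure D1:**
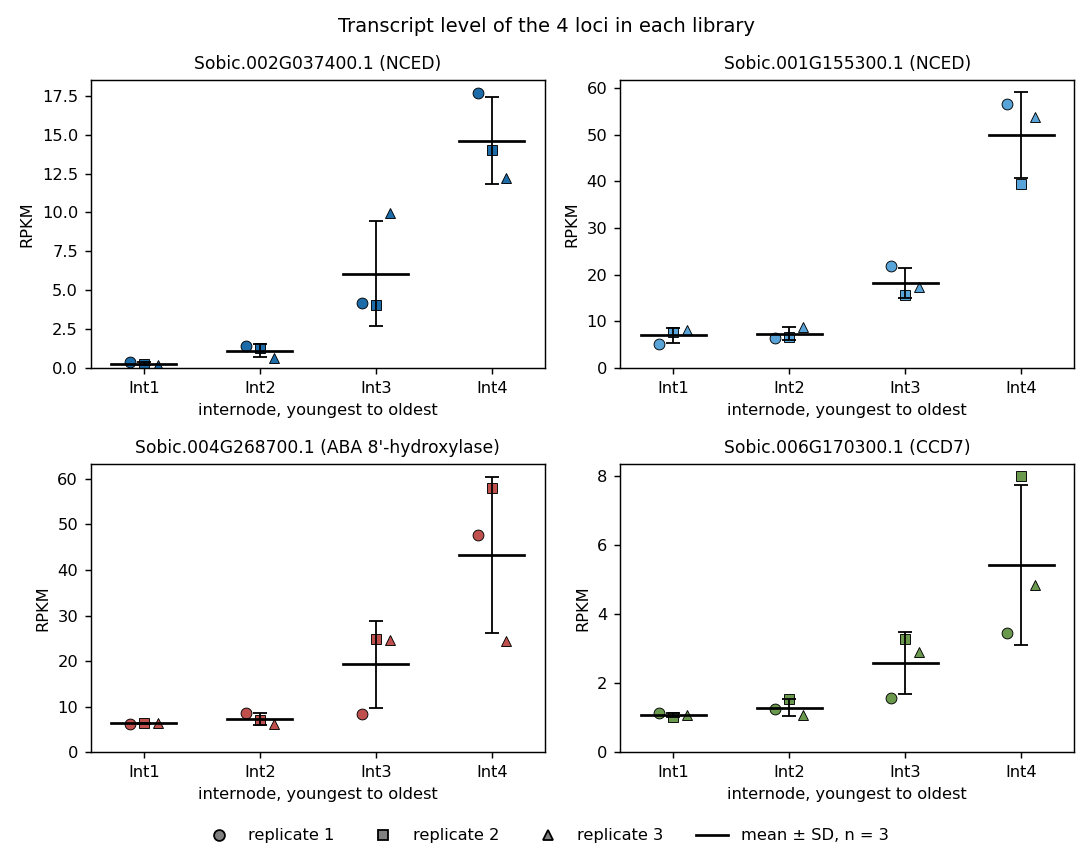
RPKM of each locus (y axis, linear from 0, a separate scale per panel) in the 3 libraries of each internode, Int1 to Int4 on the x axis; symbols mark replicates, and the line and bar are the mean and SD. Each locus is highest in Int4, and the hydroxylase panel shows Int3 replicate 1 at 8.35 and Int4 replicate 3 at 24.4, below the other libraries of their internodes.

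Of the NCED loci examined, Sobic.002G037400 was the less expressed in the youngest internode and changed more. Its RPKM was 0.36, 0.26 and 0.2 in the Int1 libraries, 1.42, 1.3 and 0.63 in Int2, 4.17, 4.02 and 9.95 in Int3, and 17.66, 13.99 and 12.2 in Int4. The ranges of successive internodes never overlapped, although Int3 replicate 3 lay nearer to Int4 than to the other Int3 libraries. The means were 0.273 ± 0.0808, 1.12 ± 0.426, 6.05 ± 3.38 and 14.6 ± 2.78 RPKM over Int1 to Int4 (SD, n = 3 each). Among the 26320 transcripts tested, this placed the locus above 4.096% by mean level in Int1 and above 73.0% in Int4.

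The other NCED locus, Sobic.001G155300, was already expressed in Int1 and was first separated from the youngest internodes in Int3. Its RPKM was 5.09, 7.6 and 8.19 in Int1, 6.46, 6.71 and 8.88 in Int2, 21.76, 15.55 and 17.36 in Int3, and 56.58, 39.52 and 53.74 in Int4. The Int1 and Int2 ranges overlapped, and every Int3 library was above every Int2 library, as every Int4 library was above every Int3 library. The means were 6.96 ± 1.65, 7.35 ± 1.33, 18.2 ± 3.19 and 49.9 ± 9.14 RPKM in Int1, Int2, Int3 and Int4 (SD, n = 3 each), and in Int4 the locus was above 92.2% of the transcripts tested.

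Sobic.001G155300 was the more abundant NCED transcript in all 12 libraries, but the share of Sobic.002G037400 in the RPKM of both was larger in the older internodes. That share was 6.61%, 3.31% and 2.38% in Int1, 18.02%, 16.2% and 6.62% in Int2, 16.1%, 20.5% and 36.4% in Int3, and 23.8%, 26.1% and 18.5% in Int4. Int3 and Int4 covered much the same range, and 5 of the 6 Int3 and Int4 libraries had a larger share than any Int1 or Int2 library, the exception being Int3 replicate 1. The mean share was 23.6% ± 7.25 in Int3/4 and 8.86% ± 6.65 in Int1/2 (SD, n = 6 each), a difference of 14.7 percentage points (exact two-sided permutation test over 924 splits, p = 0.00649).

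The ABA 8'-hydroxylase locus examined, Sobic.004G268700, was close to constant in the young internodes and varied widely in the older ones. Its RPKM was 6.32, 6.48 and 6.52 in Int1, 8.68, 7.03 and 6.15 in Int2, 8.35, 24.90 and 24.63 in Int3, and 47.58, 57.92 and 24.38 in Int4. Each pair of neighbouring internodes overlapped: Int3 replicate 1 was below the highest Int2 library, and Int4 replicate 3 was below 2 of the Int3 libraries. The means were 6.44 ± 0.106, 7.29 ± 1.28, 19.3 ± 9.48 and 43.3 ± 17.2 RPKM in Int1, Int2, Int3 and Int4 (SD, n = 3 each).

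The NCED transcripts and the hydroxylase transcript examined were more abundant in the older internodes, and a difference in their ratio was not detected. Other genes of ABA synthesis and inactivation were not examined. The summed RPKM of both NCED loci averaged 7.23, 8.47, 24.3 and 64.6 over Int1 to Int4. Divided by the RPKM of the hydroxylase in the same library, this sum gave ratios of 0.862, 1.21 and 1.29 in Int1, 0.908, 1.14 and 1.55 in Int2, 3.11, 0.786 and 1.11 in Int3, and 1.56, 0.924 and 2.70 in Int4. The high ratios of Int3 and Int4 were those of the libraries with little hydroxylase transcript, and the lowest ratio of all was also in Int3. The mean log2 ratio was 0.57 ± 0.82 in Int3/4 and 0.18 ± 0.32 in Int1/2 (SD, n = 6 each), a difference of 0.38 (exact two-sided permutation test, p = 0.327). That difference was below the SD of Int3/4 and above that of Int1/2. The test did not detect a difference, which does not show that the ratio was unchanged. Leaving out Int3 replicate 1 gave a difference of 0.17, and leaving out Int3 replicate 2 gave 0.56. A ratio of transcripts is not a ratio of enzyme activities.

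**Figure D2:**
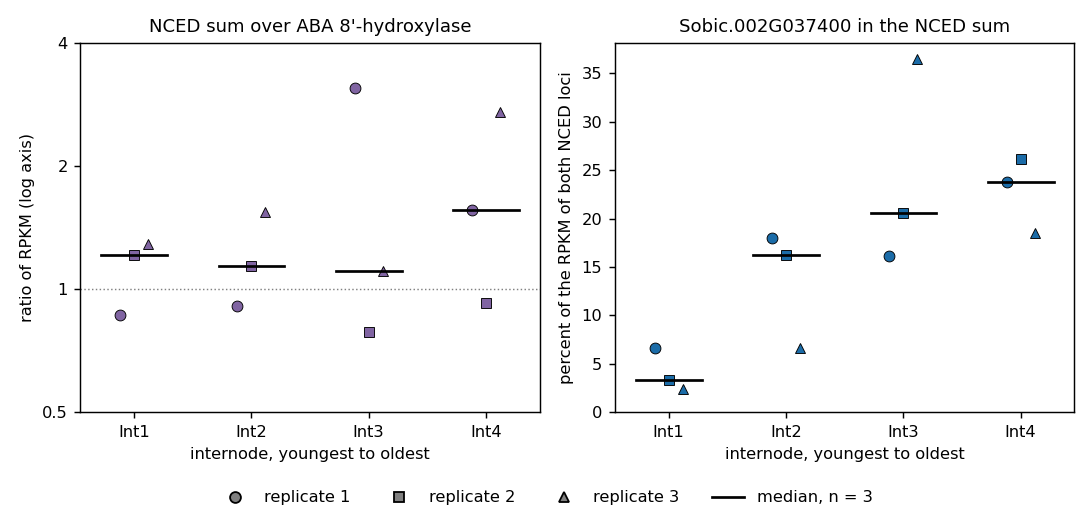
Left, the summed RPKM of both NCED loci over that of the ABA 8'-hydroxylase (log axis), and right, Sobic.002G037400 as a percentage of the NCED sum, in each library of Int1 to Int4 (x axis); lines are medians of 3 libraries. The ratio spreads from 0.786 to 3.11 within Int3 alone. The share is at most 6.61% in Int1 and at least 16.1% in Int3 and Int4, and Int2, from 6.62% to 18.02%, overlaps the older internodes.

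CCD7 (Sobic.006G170300), of the strigolactone branch, was the least abundant of the 4 transcripts in Int3 and Int4. Its RPKM was 1.13, 1.03 and 1.08 in Int1, 1.27, 1.55 and 1.07 in Int2, 1.58, 3.29 and 2.90 in Int3, and 3.45, 7.98 and 4.83 in Int4. Int1 and Int2 overlapped, Int3 replicate 1 was just above the highest Int2 library, and Int4 replicate 1 was just above the highest Int3 library. The means were 1.08 ± 0.05, 1.297 ± 0.241, 2.59 ± 0.896 and 5.42 ± 2.32 RPKM in Int1, Int2, Int3 and Int4 (SD, n = 3 each), and in Int4 the transcript was above 50.8% of those tested.

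The order of the 4 loci by mean level was partly rearranged along the stem. In Int1 it was Sobic.001G155300, the hydroxylase, CCD7 and Sobic.002G037400, and by Int3 Sobic.002G037400 had passed CCD7. The mean of the hydroxylase was above that of Sobic.001G155300 in Int3 (19.3 against 18.2 RPKM) and below it in Int4 (43.3 against 49.9 RPKM). Sobic.001G155300 and the hydroxylase overlapped in their library values in each internode, and CCD7 and Sobic.002G037400 overlapped in Int2 but not in Int1, Int3 or Int4. Together the 4 loci summed to 14.8 ± 1.63, 17.1 ± 0.679, 46.2 ± 9.59 and 113 ± 15.97 RPKM in Int1, Int2, Int3 and Int4 (SD, n = 3 each).

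The question of when in internode development these genes change was addressed by comparing internodes with limma on log2(RPKM + 0.5) over all transcripts tested. A transcript was called when its Benjamini-Hochberg adjusted p was under 0.001, its log2 fold change was at least 1 in size and its mean was at least 2 RPKM in one of the internodes compared. Fold changes on this scale understate those of low transcripts such as Sobic.002G037400.

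Over the whole span, Int4 against Int1, all 4 loci were called higher, where 12.4% of all transcripts tested were called higher and 14.2% lower. The log2 fold change was 4.28 ± 0.32 for Sobic.002G037400 (SE, limma adjusted p = 3.00e-07) and 2.77 ± 0.20 for Sobic.001G155300 (SE, adjusted p = 2.66e-07). It was 2.57 ± 0.38 for the hydroxylase (SE, adjusted p = 9.44e-05) and 1.83 ± 0.28 for CCD7 (SE, adjusted p = 0.00013). By the size of the rise the loci ranked 290, 1091, 1262 and 2188 of 26320, in the order just given. The median log2 fold change of all transcripts tested was -0.25, and scaling the libraries by the median of their transcript ratios moved it to 0.01 and moved the fold changes of the 4 loci up, to 4.50, 3.04, 2.84 and 2.07. With that scaling the transcripts called over the whole table changed from 3266 higher and 3742 lower to 4008 higher and 2523 lower.

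All 4 loci were also called when the libraries were pooled as Int3/4 against Int1/2, where 11.1% of all transcripts tested were called higher. The log2 fold changes were 3.11 ± 0.22, 2.01 ± 0.14, 1.89 ± 0.27 and 1.29 ± 0.20 (SE) for Sobic.002G037400, Sobic.001G155300, the hydroxylase and CCD7, with limma adjusted p-values between 1.64e-07 and 0.000123. For Sobic.002G037400, Sobic.001G155300 and CCD7, 6 of 6 Int3/4 libraries were above every Int1/2 library, which gives the smallest p possible in an exact permutation test with these libraries (two-sided p = 0.00216). For the hydroxylase this held for 5 of 6 libraries (exact two-sided permutation p = 0.00433), the exception being Int3 replicate 1. These permutations treat the libraries as independent, although the internodes came from 3 plants, and each side pools neighbouring internodes. The share of all transcripts tested that separated in this way was not counted. Because the study had named the loci from these same libraries, the permutation p-values are not independent evidence of the rise.

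**Figure D3:**
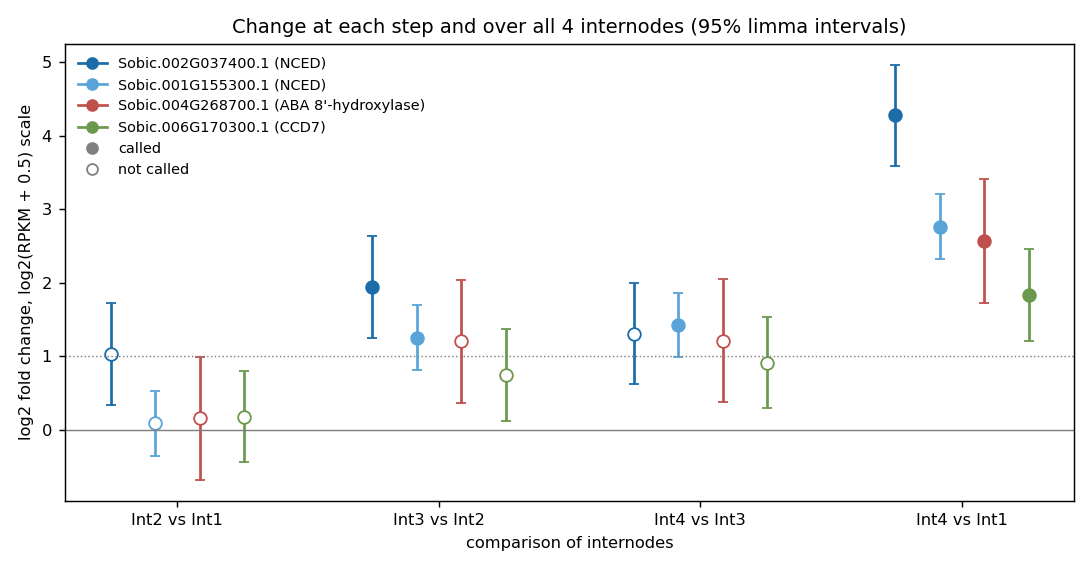
Log2 fold change on the log2(RPKM + 0.5) scale (y axis) of each locus at the steps Int2 vs Int1, Int3 vs Int2 and Int4 vs Int3 and over the whole span Int4 vs Int1 (x axis), with 95% limma intervals; filled points were called, and the dotted line marks a log2 fold change of 1. At Int2 vs Int1 only the interval of Sobic.002G037400, at 1.03, excludes 0, and all 4 loci are called at Int4 vs Int1.

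No locus was called between the youngest internodes, Int2 against Int1, where 0.475% of all transcripts tested were called in either direction. In limma 1 of the 4 loci had an unadjusted p under 0.05. This was Sobic.002G037400, with a log2 fold change of 1.03 (adjusted p = 0.0529), and its means were under the level of 2 RPKM that a call required. The log2 fold changes of the other loci were 0.09, 0.15 and 0.18 for Sobic.001G155300, the hydroxylase and CCD7, with limma adjusted p-values between 0.711 and 0.820.

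Between Int3 and Int2, the NCED loci were called higher and the remaining loci were not. The percentage of all transcripts called higher at this step was 4.81%. The log2 fold change was 1.94 for Sobic.002G037400 (limma adjusted p = 0.000485) and 1.25 for Sobic.001G155300 (adjusted p = 0.000433). The hydroxylase had 1.21 (adjusted p = 0.0250) and CCD7 0.74 (adjusted p = 0.0548), and the difference between the NCED loci and the others was not tested. These calls were near the threshold: without Int2 replicate 1 or Int2 replicate 2 none of the loci was called, and without Int2 replicate 3 or Int3 replicate 3 only 1 was. Fitted on the libraries of Int3 and Int2 alone, the NCED loci were not called (limma adjusted p = 0.00508 and 0.00115), and with the replicate number as a block Sobic.002G037400 was not (adjusted p = 0.00167). Without Int3 replicate 1 the hydroxylase was called, with a log2 fold change of 1.71 (adjusted p = 0.00095), and Sobic.001G155300 was not, at 1.12 (adjusted p = 0.00231).

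At the last step, Int4 against Int3, 1 locus was called higher, where 2.49% of all transcripts tested were. This was Sobic.001G155300, with a log2 fold change of 1.43 (limma adjusted p = 0.000375). Sobic.002G037400 had 1.31 (adjusted p = 0.00995), the hydroxylase 1.21 (adjusted p = 0.0361) and CCD7 0.91 (adjusted p = 0.0339). The call was lost without Int3 replicate 2, Int4 replicate 1 or Int4 replicate 3, with adjusted p-values between 0.00159 and 0.00214, and in a limma fit of the libraries of Int4 and Int3 alone, at 0.00266. Without Int3 replicate 3 it was lost too, and Sobic.002G037400 was called instead, with a log2 fold change of 1.70 (adjusted p = 0.000969). With only 3 libraries on each side, an exact permutation test of a single step could not give a p below 0.1.

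The first step made up a larger part of the rise for Sobic.002G037400 than for the other loci, whose steps were divided in much the same way. Of its log2 fold change from Int1 to Int4, Sobic.002G037400 gained 24.1% between Int1 and Int2, 45.3% between Int2 and Int3 and 30.6% between Int3 and Int4. Sobic.001G155300 gained 3.12%, 45.3% and 51.6% over the same steps, the hydroxylase 5.97%, 47.0% and 47.1%, and CCD7 9.67%, 40.6% and 49.7%. The larger gain of Sobic.002G037400 at the first step rests on values below 1.5 RPKM and was not tested against the other loci.

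Likeness of expression course was described by correlation. Pearson's r of log2(RPKM + 0.5) over the 12 libraries was between 0.845 and 0.943 for pairs of the 4 loci, the highest being that of the hydroxylase with CCD7 and the lowest that of Sobic.001G155300 with CCD7. These values describe libraries that share their internode differences, so that any pair of transcripts that rise along the stem has a high r. The closest of 26320 transcripts will exceed a few fixed partners in r by their number alone, so the transcripts named next are a description. For CCD7 the hydroxylase ranked 139 among all transcripts tested, and for the hydroxylase CCD7 ranked 228.

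The 5 transcripts most like Sobic.002G037400 had r between 0.992 and 0.997. They included Sobic.010G179400.1, whose best Arabidopsis match is a UDP-glucosyl transferase (UGT72B3) and which averaged 0.0267, 0.610, 4.21 and 10.2 RPKM in Int1 to Int4, and Sobic.004G244600.1, matched to the glycosyl hydrolase GH9B8, with 0.390, 2.39, 15.1 and 45.7 RPKM. The others were Sobic.007G175900.2, Sobic.001G342600.1 and Sobic.006G087900.1. The 5 most like Sobic.001G155300 had r between 0.988 and 0.997. The closest was Sobic.009G215400.1, with means of 10.8, 11.4, 26.3 and 63.0 RPKM in Int1 to Int4. The next was Sobic.006G095600.1, with 8.96, 12.6, 42.5 and 153 RPKM. Sobic.010G209100.1, Sobic.010G008400.1 and Sobic.004G236600.1 followed.

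For the hydroxylase the 5 closest transcripts had r between 0.976 and 0.987 and were Sobic.006G184700.1, Sobic.009G195800.3, Sobic.005G045900.1, Sobic.003G397300.1 and Sobic.006G184800.1. The first of them averaged 0.0333, 0.1, 1.33 and 4.85 RPKM in Int1 to Int4. For CCD7 they had r between 0.970 and 0.982 and were Sobic.003G232200.1, Sobic.003G235500.1, Sobic.010G274900.1, Sobic.001G516100.1 and Sobic.002G032700.1. Sobic.003G232200.1 averaged 1.47, 1.47, 3.32 and 7.77 RPKM, and Sobic.002G032700.1, matched to a photosystem II polypeptide, 0.0933, 0.247, 1.58 and 4.51 RPKM.

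Isoprenoid metabolism, of which the carotenoid pathway is 1 branch, was described by 22 transcripts that the study had placed there: 5 in the non-mevalonate (plastid) bin, 7 in the mevalonate bin, 5 in tocopherol synthesis, 2 in carotenoid synthesis, 2 among terpenoids and 1 in no branch. The study selected them as differentially expressed in these libraries, so their number of calls is not independent evidence either. Between Int4 and Int1, 5 of the 22 were called higher and 4 lower, beside 12.4% and 14.2% of all transcripts tested, with a median log2 fold change of 0.78 beside -0.25 for all transcripts. After median-ratio scaling 11 were called higher and 3 lower, where 4008 transcripts were called higher and 2523 lower over the whole table. The log2 fold change of Sobic.002G037400 was above those of all 22, those of Sobic.001G155300 and the hydroxylase were above those of 20, and that of CCD7 was above those of 19.

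Of the carotenoid pathway itself, 2 transcripts were in the list, and whether they were called between Int4 and Int1 depended on the scaling of the libraries. Phytoene synthase (Sobic.002G292600.1), which makes the first carotene, averaged 22.3 ± 5.86, 10.5 ± 1.32, 15.96 ± 2.93 and 39.5 ± 3.48 RPKM over Int1 to Int4 (SD, n = 3 each). Unlike the 4 loci it had its lowest level in Int2, and it was called higher at Int4 against Int3, with a log2 fold change of 1.29 (limma adjusted p = 0.000479). Between Int4 and Int1 its log2 fold change was 0.84 (limma adjusted p = 0.00194), which was not called, and 1.12 after median-ratio scaling (adjusted p = 0.000364), which was. Carotenoid isomerase (Sobic.005G160500.1), which acts on a later carotene, averaged 5.37 ± 0.275, 5.86 ± 0.580, 10.9 ± 0.351 and 10.6 ± 1.22 RPKM in Int1 to Int4 (SD, n = 3 each), a log2 fold change of 0.91 between Int4 and Int1 (limma adjusted p = 3.10e-05) that was under the size required for a call. With the scaling it was 1.18 (adjusted p = 1.55e-06) and was called.

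The non-mevalonate bin is named for the plastid pathway that makes the isoprene units of carotenoids, but 2 of its 5 transcripts are matched to other functions, Sobic.001G333600.1 to a ubiquitin-fold protein and Sobic.003G122100.1 to a geranylgeranyl reductase. Of the 5, 1 was called higher and none lower between Int4 and Int1, beside 12.4% and 14.2% of all transcripts tested. This was 1-deoxy-D-xylulose 5-phosphate reductoisomerase (DXR, Sobic.003G103300.1), with 5.53 ± 0.391, 5.68 ± 0.542, 7.76 ± 0.495 and 13.03 ± 1.64 RPKM in Int1 to Int4 (SD, n = 3 each) and a log2 fold change of 1.16 between Int4 and Int1. The preceding enzyme, DXS (Sobic.009G135500.1), had 0.79 and geranylgeranyl pyrophosphate synthase (Sobic.002G353300.1), which makes the substrate of phytoene synthase, 0.68, and neither was called.

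In the cytosolic mevalonate pathway, which supplies sterols, 2 of 7 transcripts were called higher and 3 lower between Int4 and Int1. HMG-CoA reductase (Sobic.007G207600.1), the main controlled step of the pathway, averaged 27.3 RPKM in Int4 against 81.9 RPKM in Int1 and fell by 1.55 on the log2 scale. An HMG-CoA synthase (Sobic.002G268700.1) fell by 1.44 and isopentenyl diphosphate isomerase (Sobic.002G330500.1) fell by 1.40. The other HMG-CoA synthase in the list, Sobic.007G182000.1, was called higher, at 2.19, and averaged 7.09 RPKM in Int4 against 1.19 RPKM in Int1. The largest rises in the list were those of the terpenoid cyclase-like transcripts Sobic.007G055700.1, at 3.72, and Sobic.008G142400.13, at 2.98. None of the 22 changed sign between Int4 and Int1 when the libraries were scaled to their median ratios.

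**Figure D4:**
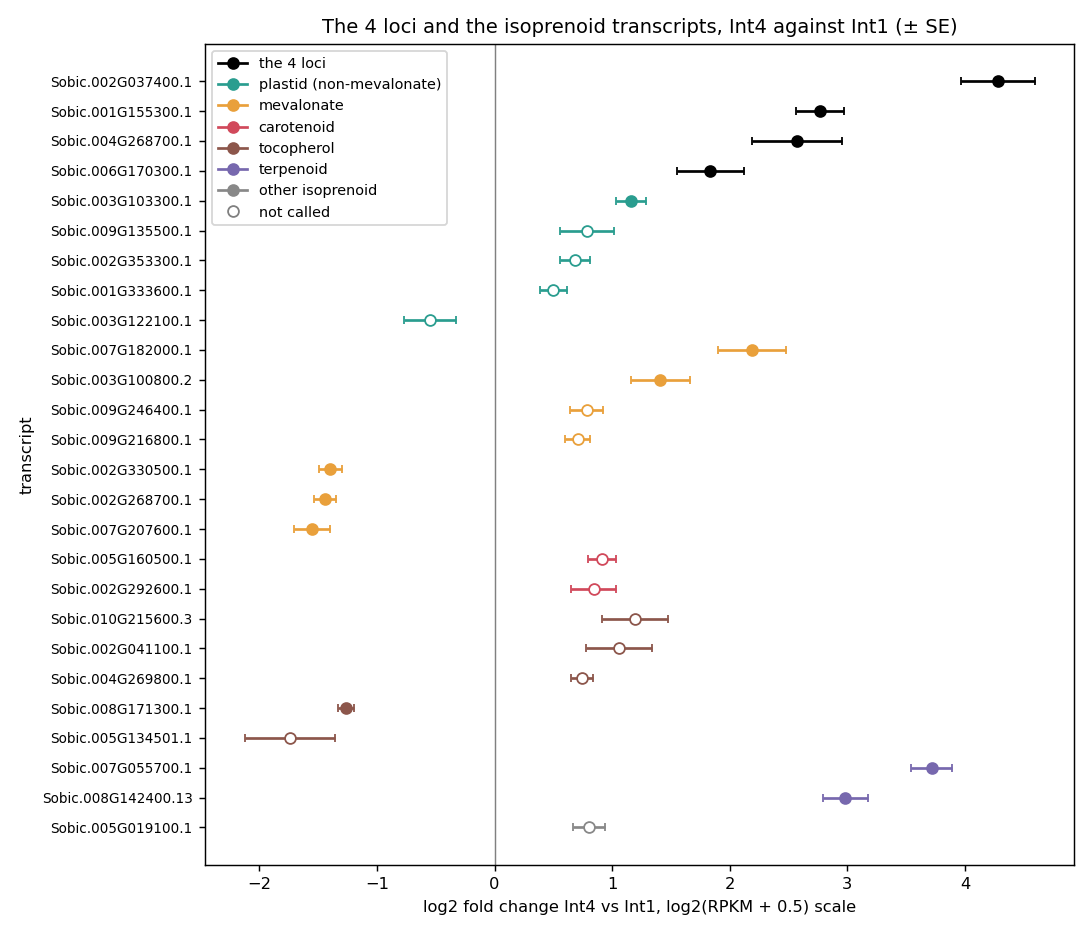
Log2 fold change Int4 vs Int1 on the log2(RPKM + 0.5) scale, with its SE (x axis), of the 4 loci (black, top) and of the 22 isoprenoid transcripts by branch (colours, y axis); filled points were called. The 4 loci lie between 1.83 and 4.28, the carotenoid transcripts at 0.84 and 0.91, and the mevalonate branch on both sides of 0.

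Transcripts typical of certain tissues were summed in each library, from bins that the study had also selected as differentially expressed in these libraries. The 42 transcripts that the study placed in lignin synthesis, a mark of thickening xylem and fibre walls, summed to between 692.8 and 752 RPKM in the Int1 libraries, 930 and 1484 in Int2, 2981 and 4800 in Int3, and 3519 and 5710 in Int4, and 29 of them were called higher and 2 lower between Int4 and Int1, beside 12.4% and 14.2% of all transcripts tested. The 17 transcripts of photosynthesis, included as a measure of leaf or sheath tissue, summed to between 265 and 290 RPKM in Int1, 292 and 307 in Int2, 246 and 274 in Int3, and 238 and 279 in Int4. No transcript of either list was at 0 in all libraries. The lignin sum was higher in Int4 than in Int1, as were the 4 loci. The photosynthesis sums of Int4 and Int1 overlapped, while single photosynthesis transcripts went both ways, 5 called higher and 6 lower between Int4 and Int1, with a median log2 fold change of 0.75. The part of cell composition in the rise of the 4 loci was not tested.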

How the data were processed

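Polyadenylated RNA of Int1, Int2, Int3 and Int4 was sequenced by the authors on an Illumina instrument, 3 libraries per internode from 3 plants, and single reads were aligned to the Sorghum bicolor v3.1 transcript sequences in the CLC Genomics Workbench (versions not given in the sources used here). The authors deposited RPKM values, rounded to 2 decimals, for 47205 transcripts, and tested differential expression with edgeR in CLC. Counts were not used here, so reads behind a single value are unknown and no counting interval is given. Reads shared between near-identical transcripts could be split by the alignment, which affects related genes such as the NCED loci.

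The 26320 transcripts that averaged 1 RPKM or above in some internode entered a limma 3.58.1 fit (trend on, R 4.3.3) on log2(RPKM + 0.5), in which all 12 libraries shared the estimate of the spread, with Benjamini-Hochberg adjustment per comparison. The call thresholds follow the study: adjusted p under 0.001, a fold change of 2 or more and an average of 2 RPKM or more in an internode compared. Comparisons share libraries and are not independent. Single quantities were compared over libraries with an exact permutation test of 6 against 6, which treats the libraries as independent although they came from 3 plants. The fitting code was tested on simulated data. Transcripts named for likeness are the 5 highest in Pearson's r for each locus. The isoprenoid, lignin and photosynthesis lists are the study's bins in a shortened copy of its annotation, with 770 transcripts. A RefSeq gene table matched 0 of the 4 loci, so planned lists of ABA genes and RefSeq sequences were not used here. The members and lists were chosen with earlier results of these data known. Alternatives were the added constant (0.1 or 1), no filter, median-ratio scaling, only the libraries compared, a replicate block, a threshold of 0.05, sums per locus and leaving out each library. Over Int2 and Int1, libraries with the same replicate number deviated together (r between 0.104 and 0.137 for the 3 pairs), so the numbers meet the criterion for pairs there, although the labels do not tie numbers to plants. All values in the text are from the fit without a block unless a block is named. Figures were drawn with matplotlib 3.10.9.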

Additional observations from a re-analysis of the deposited data

How the results depend on the processing

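The counts of called loci for Int4 vs Int1 (4), Int3/4 vs Int1/2 (4) and Int2 vs Int1 (0) were the same under all alternatives, and no called log2 fold change changed sign. The uncalled one of Sobic.001G155300 at Int2 vs Int1, 0.09, was -0.11 without Int1 replicate 1 and -0.05 without Int2 replicate 3. For Int3 vs Int2, where 2 loci were called, the count was 0 when only the libraries compared were fitted, 3 at an adjusted p under 0.05 and between 0 and 2 when leaving out a library. With a replicate block it was 1, Sobic.002G037400 having an adjusted p of 0.00167. For Int4 vs Int3, where 1 locus was called, the count was 0 with only the libraries compared, 3 at an adjusted p under 0.05, and between 0 and 1 when leaving out a library. Fewer libraries entered the fits that lost calls without the block. For alternatives other than the block and the scaling, the share of all transcripts called was not counted. Their counts of called loci therefore have no background to be read against. The replicate block changed no other call, including Int2 vs Int1, where the numbers paired. Same-numbered libraries had r between 0.045 and 0.235 for Int4 and Int2 and between 0.047 and 0.108 for Int4 and Int1, but between -0.268 and 0.053 for Int3 and Int2, -0.339 and 0.182 for Int4 and Int3, and -0.14 and 0.051 for Int3 and Int1. With Int3 replicates 1 and 3 exchanged, all 9 pairs with Int3 would be above 0 (0.051 to 0.374). This exchange was picked after the r values were seen, so it is not a test of the numbering. The blocked values use all 12 libraries. They and the permutations within replicate numbers rest on numbers that are uncertain for Int3 and that the labels do not tie to plants. With permutation within replicate numbers the exact p was 0.00926 for Sobic.002G037400, Sobic.001G155300 and CCD7, 0.0185 for the hydroxylase and the NCED share, and 0.324 for the NCED to hydroxylase ratio.

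Of 396 values of single loci under the alternatives, 15 lost a call and 5 gained one, all at Int3 vs Int2 or Int4 vs Int3. The differences in the NCED ratio (0.17 to 0.56 on the log2 scale) and share (12.2 to 16.6 percentage points) kept their direction when leaving out a library. Each locus had 1 transcript, so sums per locus gave the values of the transcripts. The values of Sobic.002G037400 in Int1, at most 0.36 RPKM, are the least precise, and its Int4 vs Int1 log2 fold change was between 3.60 and 5.31 with the added constants. Scaling, chosen for the carotenoid transcripts after seeing the data, added calls for phytoene synthase and carotenoid isomerase at Int4 vs Int1.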

Other observations

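In Int4 and Int2 the replicates had the same order in the lignin sum and in Sobic.002G037400, and none of the other loci shared it in both internodes. In Int4 the lignin sums of replicates 1, 2 and 3 were 5710, 4135 and 3519 RPKM, beside 17.66, 13.99 and 12.2 RPKM of Sobic.002G037400, 47.58, 57.92 and 24.38 RPKM of the hydroxylase and 3.45, 7.98 and 4.83 RPKM of CCD7. In Int2 the lignin sums were 1484, 1330 and 930 RPKM beside 1.42, 1.3 and 0.63 RPKM of Sobic.002G037400. The hydroxylase had the same order in Int2, at 8.68, 7.03 and 6.15 RPKM, and Sobic.001G155300 did not, at 6.46, 6.71 and 8.88 RPKM. In Int3 replicate 3 was highest for both, with 4800 and 9.95 RPKM, while replicates 1 and 2 differed little in the NCED transcript, and in Int1 replicate 3 was lowest for both, with 692.8 and 0.2 RPKM, while replicates 1 and 2 were in opposite order (730.8 and 752 RPKM of lignin transcripts, 0.36 and 0.26 RPKM of the NCED transcript). This was noticed after the values were seen and was not tested.

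Int3 replicate 1 and Int4 replicate 3, the libraries lowest in ABA 8'-hydroxylase within their internodes, deviated together over all transcripts tested (r = 0.334 of their deviations from the internode means, across transcripts, which are not independent replicates), and so did Int3 replicate 3 and Int4 replicate 1 (r = 0.374). These pairs were picked after the values were seen. Deviations from an internode mean depend on each other within the internode, so the r values are not separate observations. The labels do not say which libraries came from 1 plant, and a link to the hydroxylase level was not tested.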
